A study of Mus musculus with 36 samples.

Results

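The comparison described here set H2AK119ub1 in the hippocampus of Kdm2b mutant mice against that of control mice at postnatal day 0 (P0). H2AK119ub1 is histone H2A that carries a single ubiquitin on a lysine of its C-terminal tail. Its members were the 4 hippocampal H2AK119ub1 libraries of the 36 samples in the series, 2 from Ctrl mice and 2 from cKO mice, chosen by their labels for tissue, antibody and genotype. Ctrl mice were labelled Kdm2bfl/+ or Kdm2bfl/fl, so they carried the floxed allele and no stated Cre. cKO mice were labelled Kdm2bEmx1-delta-CxxC: Emx1-Cre, which is active in progenitors of the dorsal telencephalon, removed the exon that encodes the CxxC zinc finger of KDM2B. The tissue was whole hippocampus, so it also held cells outside the Emx1 lineage, such as interneurons, microglia and vessel cells, in which the allele was not recombined. In such tissue, fewer cells carrying a mark and less mark per cell cannot be told apart. Each library was immunoprecipitated with 1 antibody against H2AK119ub1 (CST #8240S), and nothing in the labels says whether the 2 libraries of a genotype came from separate animals. All p-values therefore measure only the spread between these samples, which may be technical. The 4 libraries are named Ctrl 1, Ctrl 2, cKO 1 and cKO 2, and runs of 4 values follow that order.

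Polycomb repressive complex 1 places this ubiquitin through its RING1 ligases, and the mark lies over developmental genes that a cell keeps silent. In the variant complex PRC1.1, KDM2B brings the ligase to CpG islands because its CxxC domain binds DNA with unmethylated CpG dinucleotides. The mark can in turn recruit PRC2, the complex that trimethylates histone H3 on lysine 27 (H3K27me3). In the developing hippocampus, Wnt ligands from the cortical hem drive the growth of the dentate gyrus and its progenitors, and many Wnt genes are Polycomb targets.

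The measured unit was the island, a stretch of genome in which reads of a library exceeded its input DNA in consecutive 200 bp windows, with gaps of up to 600 bp bridged. Each island carries a read count. A gene's promoter was taken as the 4 kb around its most upstream annotated start, for 20807 autosomal protein-coding genes, and it was called in a library when an island shared at least 1 bp with it. A promoter was kept when it was called in all 4 libraries, lost when it was called in both Ctrl and in no cKO library, and gained when it was called in both cKO and in no Ctrl library. Cover is the percentage of the promoter's 4 kb that lay in islands. A place without an island has no recorded count, and a cover of 0 says only that no island was called there.

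Promoter sequences are shown for 7 genes because their content of CpG, the dinucleotide that a CxxC domain recognises, differs between the kept, lost and gained promoters described next. Each is 300 bases from 250 upstream to 50 downstream of the RefSeq start (GRCm38.p6, the mm10 build), written 5′ to 3′ on the gene's strand, with every CG in capitals. Wnt3 (chr11:103773925-103774224, plus strand, 24 CG) encodes a Wnt ligand, and Hoxa5 (chr6:52204538-52204837, minus strand, 29 CG) and Tox2 (chr2:163202877-163203176, plus strand, 38 CG) encode nuclear regulators. These 3 promoters were kept.
Wnt3: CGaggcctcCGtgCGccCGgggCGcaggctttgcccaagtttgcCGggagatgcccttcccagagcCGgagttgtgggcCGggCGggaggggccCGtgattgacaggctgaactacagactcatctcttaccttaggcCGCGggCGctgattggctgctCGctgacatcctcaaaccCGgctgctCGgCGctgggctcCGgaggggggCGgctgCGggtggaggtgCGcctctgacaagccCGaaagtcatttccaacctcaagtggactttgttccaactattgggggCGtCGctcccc
Hoxa5: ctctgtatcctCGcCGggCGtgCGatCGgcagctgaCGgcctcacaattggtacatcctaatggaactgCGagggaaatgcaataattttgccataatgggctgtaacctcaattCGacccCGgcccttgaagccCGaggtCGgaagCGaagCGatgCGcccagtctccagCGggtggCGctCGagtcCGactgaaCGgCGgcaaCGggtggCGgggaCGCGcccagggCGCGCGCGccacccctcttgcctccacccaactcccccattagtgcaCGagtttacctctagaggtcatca
Tox2: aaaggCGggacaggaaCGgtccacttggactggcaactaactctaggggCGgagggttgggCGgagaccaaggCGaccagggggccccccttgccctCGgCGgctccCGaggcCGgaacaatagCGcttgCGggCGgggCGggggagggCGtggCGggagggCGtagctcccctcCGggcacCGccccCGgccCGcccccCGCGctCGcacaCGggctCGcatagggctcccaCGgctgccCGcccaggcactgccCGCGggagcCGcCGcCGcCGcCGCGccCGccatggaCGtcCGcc
Syde2 (chr3:145987620-145987919, plus strand, 39 CG), encoding a GTPase-activating protein, and Epha3 (chr16:63864126-63864425, minus strand, 18 CG), encoding an ephrin receptor, were lost. A call refers to the whole 4 kb, and the bases shown need not lie in an island. At Epha3 the Ctrl islands lay upstream of the bases shown, within chr16:63865001-63870000.
Syde2: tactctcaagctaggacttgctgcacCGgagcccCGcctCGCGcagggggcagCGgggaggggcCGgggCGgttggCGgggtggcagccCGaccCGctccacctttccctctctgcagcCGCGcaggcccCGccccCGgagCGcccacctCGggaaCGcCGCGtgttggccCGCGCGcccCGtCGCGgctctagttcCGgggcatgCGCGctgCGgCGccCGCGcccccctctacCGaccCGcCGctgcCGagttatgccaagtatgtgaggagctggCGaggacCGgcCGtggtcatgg
Epha3: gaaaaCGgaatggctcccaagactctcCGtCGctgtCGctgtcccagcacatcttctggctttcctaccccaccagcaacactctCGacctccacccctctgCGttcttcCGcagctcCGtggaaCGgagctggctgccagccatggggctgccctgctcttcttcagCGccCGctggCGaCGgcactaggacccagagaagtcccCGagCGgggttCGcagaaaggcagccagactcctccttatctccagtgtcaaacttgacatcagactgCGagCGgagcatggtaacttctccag
Tmem212 (chr3:27896319-27896618, minus strand, 5 CG), encoding a transmembrane protein, and Sash1 (chr10:8886021-8886320, minus strand, 20 CG), encoding a scaffold protein, were gained.
Tmem212: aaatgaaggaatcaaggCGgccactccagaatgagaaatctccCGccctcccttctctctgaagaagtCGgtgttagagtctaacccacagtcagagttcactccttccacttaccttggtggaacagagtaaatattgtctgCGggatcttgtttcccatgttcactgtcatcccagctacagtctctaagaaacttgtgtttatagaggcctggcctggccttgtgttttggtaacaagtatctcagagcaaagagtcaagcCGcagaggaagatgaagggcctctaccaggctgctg
Sash1: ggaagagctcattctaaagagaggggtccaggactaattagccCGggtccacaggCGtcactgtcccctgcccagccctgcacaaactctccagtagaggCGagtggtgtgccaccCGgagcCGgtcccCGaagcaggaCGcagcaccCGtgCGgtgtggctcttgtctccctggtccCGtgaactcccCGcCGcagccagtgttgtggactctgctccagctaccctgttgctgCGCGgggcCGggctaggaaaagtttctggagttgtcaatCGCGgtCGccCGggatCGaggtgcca

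Over the 15687 promoters with such a window, the median number of CG was 15, and 95.3% of the windows held at least 1. The motif reads the same on both strands. The median was 19 for the 238 kept promoters with a window, 20.5 for the 40 lost and 11 for the 61 gained. Within each class the counts varied widely, and Epha3, a lost promoter, held fewer CG than Sash1, a gained one.

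Libraries of the same genotype differed more from each other than the genotypes did. The number of autosomal islands was 17032, 26404, 13701 and 53373, and they held 996663, 4214248, 986907 and 6795862 reads. Islands covered 44.9, 157, 37.3 and 247 Mb, so that Ctrl libraries averaged 101 ± 79.4 Mb and cKO libraries 142 ± 148 Mb (SD over 2 libraries, two-sided exact permutation test, p = 1). The lowest p that 2 against 2 libraries can give is 0.33, so no single library value could pass 0.05. Both replicates numbered 1 were small and both numbered 2 were large, and the covered length differed 6.61-fold between the cKO libraries against 3.50-fold between the Ctrl libraries. Ctrl 2 and cKO 2 shared 34.4% of the bases that either covered, the highest share of any pair. Ctrl 1 and cKO 1 shared 7.22%, the lowest, while Ctrl 1 and Ctrl 2 shared 12.4% and cKO 1 and cKO 2 shared 7.61%. Such a share is capped where the libraries of a pair cover unlike lengths. Ctrl 1 had 331 islands on the X chromosome, against 13 in Ctrl 2, 10 in cKO 1 and 46 in cKO 2; all further values are from autosomes.

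Island width and read density did not separate the genotypes. The median island was 2.4, 4.8, 2.6 and 3.4 kb wide, 3.6 ± 1.70 kb in Ctrl and 3 ± 0.566 kb in cKO (SD, n = 2 each, exact permutation p = 1). Islands wider than 10 kb numbered 48, 2574, 11 and 3609, and the widest measured 27.6, 125, 17.4 and 134.4 kb. Broad islands were thus far more frequent in replicate 2 of both genotypes. Reads per kb of island were 22.2, 26.8, 26.4 and 27.5, so that Ctrl 1 lay apart from the other 3 libraries, and the means were 24.5 ± 3.26 in Ctrl and 27 ± 0.777 in cKO (SD, n = 2 each, exact permutation p = 0.667).

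**Figure D1:**
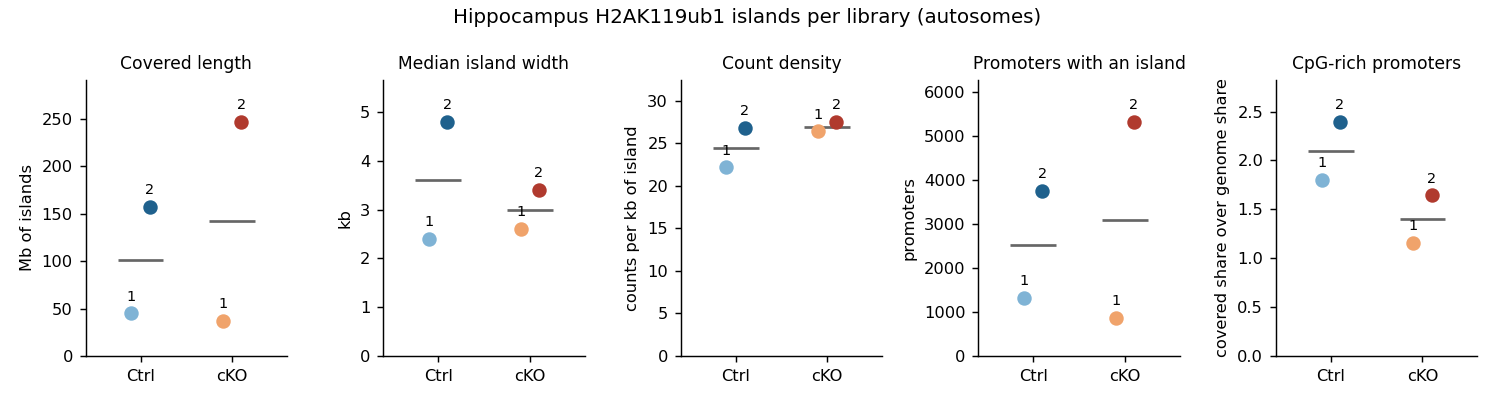
Values of the 4 hippocampal H2AK119ub1 libraries, 1 numbered point per library with the genotype mean as a grey bar, in 5 panels: Mb covered by islands, median island width in kb, reads per kb of island, number of promoters with an island, and enrichment of islands at CpG-rich promoters (share of their bases covered over the share of autosomes covered). The genotypes overlap in the first 4 panels, while the enrichment is lower in both cKO libraries (1.15 and 1.64) than in both Ctrl libraries (1.80 and 2.39).

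**Figure D2:**
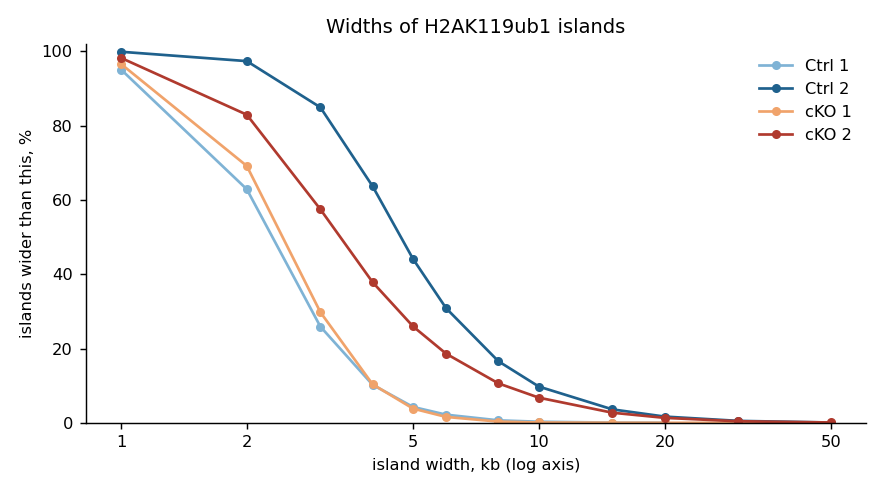
Percentage of a library's islands that are wider than the width on the horizontal axis (kb, log axis), 1 line per library. The lines of Ctrl 2 and cKO 2 lie above those of Ctrl 1 and cKO 1, with medians of 4.8 and 3.4 kb against 2.4 and 2.6 kb.

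Islands in cKO lay less on CpG-rich promoters than islands in Ctrl. A promoter was termed CpG-rich when the 1 kb centred on its start had a GC content of 50% or more with CpG at 0.6 or more of the number expected from its base composition, which held for 9506 promoters (45.7%). The share of CpG-rich promoter bases inside islands, divided by the share of all autosomal bases inside islands, was 1.80 in Ctrl 1, 2.39 in Ctrl 2, 1.15 in cKO 1 and 1.64 in cKO 2. Both cKO libraries were below both Ctrl libraries (2.10 ± 0.418 against 1.40 ± 0.345, SD, n = 2 each, a log2 ratio of -0.59, exact permutation p = 0.33, the lowest possible). At the 11301 CpG-poor promoters the same ratio was 1.22, 1.61, 1.12 and 1.65, and the genotypes overlapped (p = 1, exact permutation test). CpG-rich promoters also made up less of the called promoters in cKO, at 57.2%, 55.1%, 50.2% and 45.8%. Promoters called per Mb of island were 29.4, 23.9, 23.1 and 21.6, again with both cKO libraries below both Ctrl libraries (exact permutation p = 0.33). When only the 1 kb to either side of the start was taken, the enrichment was 1.51, 2.35, 0.971 and 1.59, and cKO 2 lay above Ctrl 1 (exact permutation p = 0.667). When each library was reduced to its densest islands up to the same covered length, the ratios were 2.01, 4.09, 1.15 and 3.13, and the genotypes also overlapped (exact permutation p = 0.667). The islands left had at least 18.7, 29.4, 15.9 and 32.6 reads per kb, so the density cut was strictest in cKO 2. In cultured hippocampal neurospheres, the other H2AK119ub1 data of the series, the ratio was 2.22 and 2.18 for the Ctrl libraries, above 1.42 and 1.61 for the cKO ones.

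Around CpG-rich starts the profiles of the genotypes overlapped, next to a large difference in level between replicates. At the start itself 2.30%, 14.5%, 1.35% and 14.9% of CpG-rich promoters lay in islands, and 9 to 10 kb away the shares were 2.21%, 7.55%, 1.52% and 12.1%. The first share over the second gave 1.04 for Ctrl 1, 1.93 for Ctrl 2, 0.887 for cKO 1 and 1.23 for cKO 2, so the ratios overlapped, with cKO 2 above Ctrl 1. The highest cover was not at the start but beside it, at 2.3 kb in the replicates numbered 1 and at 1.3 kb in the replicates numbered 2. At CpG-poor starts the ratios were 1.66, 2.08, 1.47 and 1.77.

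**Figure D3:**
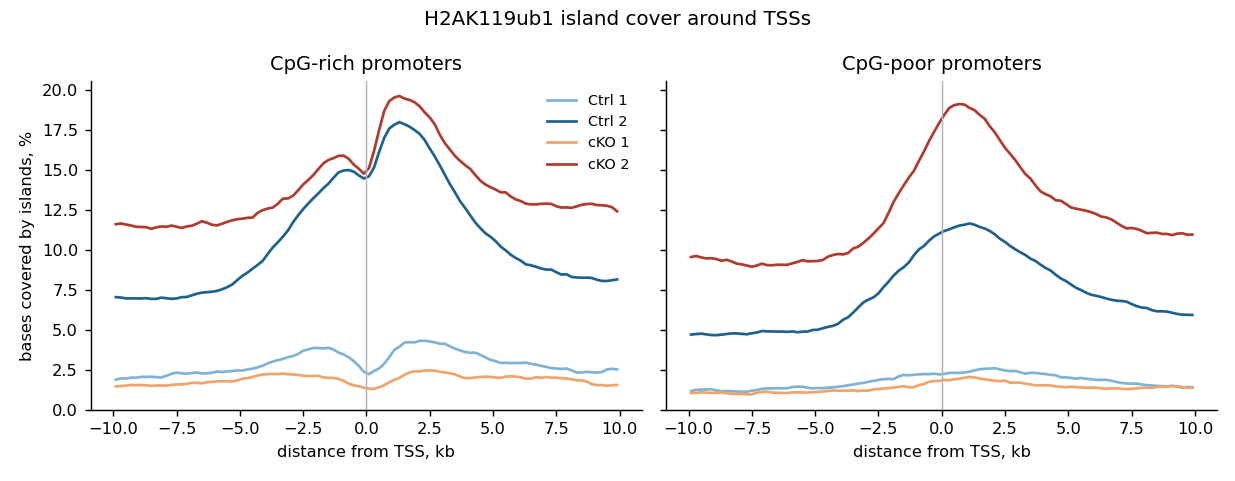
Percentage of bases covered by islands against distance from the start in kb (positive values lie downstream), for CpG-rich promoters on the left and CpG-poor promoters on the right, 1 line per library. At CpG-rich starts the covered percentage is 2.30, 14.5, 1.35 and 14.9 in Ctrl 1, Ctrl 2, cKO 1 and cKO 2, in a dip between flanking maxima, and replicate number separates the lines more than genotype does.

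Most promoters had no island in any library, and few were called by genotype. Of the 20807 promoters, 14587 (70.1%) were never called, 348 were kept (1.67% of all tested), 52 were lost (0.25%), 94 were gained (0.452%), and 5726 were called in some other combination. With each library reduced to its densest islands up to the same covered length, 131 were lost and 48 gained, so lost promoters then outnumbered gained ones, and only 9 of the 52 and 11 of the 94 stayed in their class. Leaving out 1 library moved the lost promoters to 676 (without cKO 2), 582 (without Ctrl 1) or 209 (without Ctrl 2), and the gained ones to 2062 (without cKO 1), 357 (without Ctrl 2) or 205 (without cKO 2). The libraries called 1318, 3756, 863 and 5330 promoters (exact permutation p = 1). The most frequent combinations followed library size: 1968 promoters were called in cKO 2 alone, 1913 in Ctrl 2 and cKO 2, 624 in all libraries but cKO 1, and 530 in Ctrl 2 alone. Kept and gained promoters depended most on cKO 1, which covered the least. Without it 972 were kept and 2062 gained, while 55 were lost. These shifts follow from the definition, since leaving out a library drops its condition from each class. The 2062 are the 94 gained promoters with the 1968 called in cKO 2 alone. The 972 are the 348 kept with the 624 called in all libraries but cKO 1. Why the libraries differed in size was not tested.

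The kept and lost promoters were mostly CpG-rich, and the gained ones mostly CpG-poor. Of the kept promoters 225 (64.7%) were CpG-rich, of the lost 34 (65.4%) and of the gained 21 (22.3%), against 45.7% of all promoters. The share was also low, at 33.4%, among promoters called in cKO 2 alone. It was also high, at 60.4%, among those called in all libraries but cKO 1. A high or low share was thus not particular to the lost or gained promoters. The median number of CpG in the 1 kb around the start was 57 for kept, 60.5 for lost and 25.5 for gained promoters, against 43 over all. The division by cover was similar, though it was not independent of the call. Cover was lower in both cKO than in both Ctrl libraries at 105 promoters (0.505% of all tested), of which 66 (62.9%) were CpG-rich, and higher in both cKO libraries at 127 (0.61%), of which 31 (24.4%) were. The 105 include all 52 lost promoters and the 127 include all 94 gained ones, so this likeness was in large part set by definition.

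Islands at kept promoters held more reads than those at lost or gained ones. At the 348 kept promoters the median island count was 90, 487, 88 and 555 reads, the median width of the islands was 3.9, 14.7, 3.3 and 15 kb, and the median cover was 55.9%, 100%, 46.2% and 100%. The lost promoters had a median of 48.5 reads in Ctrl 1 and 106 in Ctrl 2, in islands of 2.6 and 4.5 kb. The gained promoters had 66 reads in cKO 1 and 113.5 in cKO 2, in islands of 2.6 and 4.4 kb. Over all promoters called in a library the medians were 60, 154, 72 and 132 reads, so the lost and the gained promoters had lower counts than the typical called promoter. The islands of both libraries shared bases within the promoter at 45 of the 52 lost and 74 of the 94 gained promoters; at the others they lay in different parts of the 4 kb. No promoter was lost under all of 4 stricter definitions of a call, and 3 were gained under all of them, namely Thy1, Abi3 and Phyhip, which are named here after their values were seen.

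Of the 52 lost promoters, the 10 with the highest counts are described. At Syde2, whose sequence is shown above, islands covered 93.3% of the promoter in Ctrl 1 and 81.7% in Ctrl 2, with 101 and 140 reads, and no cKO library had an island. At equal covered length the difference in mean cover was 0 at Syde2, as it was at Ramp2 and Igdcc3 among the genes below. Ednrb, which encodes the endothelin B receptor, had a cover of 50% and 85% with 84 reads in each Ctrl library. Sel1l3 had a cover of 31.9% and 80% with 95 and 198 reads. At these 3 promoters at least 31.9% of the 4 kb was covered in each Ctrl library. Jam3, a junctional adhesion molecule, had 138 and 98 reads over 19.5% and 39.5% of the promoter. At Jam3, Sel1l3 and Slc30a10 (a manganese transporter), cKO 2 had an island outside the promoter, with 60, 132 and 81 reads, in a merged stretch that reached it. Epha3, Ubald2, Slc30a10, Gm21671, Ramp2 (an accessory protein of adrenomedullin receptors) and Igdcc3 had 65 to 84 reads in the Ctrl library that had fewer and 78 to 186 in the other. At Ubald2, Slc30a10 and Ramp2 the islands of the 2 Ctrl libraries did not share a base within the promoter. None of these 10 was a member of the Wnt, Hox or other gene groups below.

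The gained promoters included the Wnt ligand Wnt8a. At Wnt8a, a ligand of the early embryo, cover was 0%, 0%, 52.8% and 82.8%, with 121 and 232 reads in the cKO islands. The merged stretch that held the promoter was not free of the mark in Ctrl, where islands outside the promoter held 43 and 322 reads. At Sash1 the cKO cover was 96.7% and 100%, with 122 and 146 reads, and at Slc43a1, an amino acid transporter, it was 88.8% and 100%, with 118 and 188 reads. These 2 promoters were covered nearly whole in both cKO libraries, and no Ctrl library had an island in the stretch. At equal covered length the difference in mean cover was 48.4 percentage points at Sash1 in place of 98.4, 44.4 at Slc43a1 in place of 94.4, and 26.4 at Wnt8a in place of 67.8. Tmem212 had 130 and 124 reads over 60.8% and 39.2% of the promoter, in parts that did not overlap. The merged stretch at Tmem212 also held 55 reads of Ctrl 2 outside the promoter. 1700025G04Rik, Nwd2, Acp5 (tartrate-resistant acid phosphatase), Phyhip, Kcnj15 (a potassium channel) and Orm1 (an acute-phase plasma protein) made up the rest of the 10 strongest, with 88 to 101 reads in the cKO library that had fewer. Cover was only 1.9% at 1700025G04Rik in cKO 1 and 2.25% at Acp5 in cKO 2. At Acp5 the islands of the cKO libraries did not share a base within the promoter. The merged stretch at Orm1 held 62 and 809 reads in Ctrl islands outside the promoter.

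**Figure D4:**
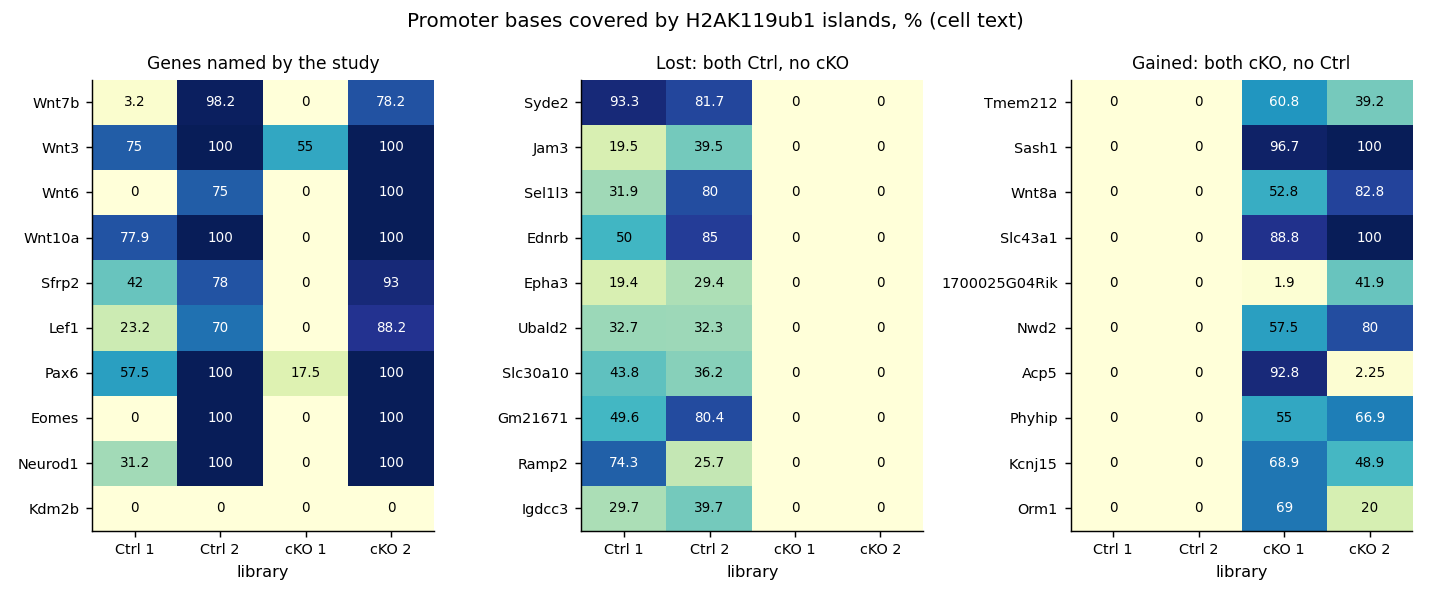
Heat map of promoter cover in percent of the 4 kb, with the value in each cell, genes in rows and libraries in columns: the genes that the study's text discusses, the 10 lost promoters and the 10 gained promoters with the highest counts. Lost and gained promoters are at 0 in 1 genotype by definition, and at the study genes cKO 1 is at 0 for all but Wnt3 and Pax6 while cKO 2 lies between 78.2% and 100% for all but Kdm2b.

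The widest kept islands lay over Hox clusters and other transcription factor genes. At Hoxa5 the islands that touched the promoter measured 12.4, 105.2, 12.6 and 107.2 kb and its cover was 80%, 100%, 100% and 100%. At Hoxc6 they measured 10.6, 125, 8.2 and 86.2 kb, and at Hoxb7 6.8, 112, 2.6 and 127.8 kb. In each of these clusters both replicates numbered 2 had far wider islands than both numbered 1, whatever the genotype. Gm28230, in the Hoxd cluster, and Tbx3, Ebf3 and Casz1, all transcription factor genes, were also among the 10, with Tox2, the collagen gene Col27a1 and 1700025C18Rik. The merged stretch around Casz1 held 1728, 6968, 1923 and 8677 reads.

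The genes of the Wnt pathway, like promoters in general (6.33%, 18.1%, 4.15% and 25.6% called), were called mainly in the 2 large libraries. With all islands taken, no member was lost, beside 0.25% of all promoters, a share at which groups of this size would hold few or none. Of 19 Wnt ligand promoters 5, 17, 4 and 19 were called; Wnt3 was kept, Wnt8a was gained and the other 17 were neither. At Wnt3 cover was 75%, 100%, 55% and 100%, lowest in cKO 1 but with cKO 2 equal to Ctrl 2. At Wnt7b, a ligand of cortical and hippocampal neurons, cover was 3.2%, 98.2%, 0% and 78.2%, and at Wnt6 it was 0%, 75%, 0% and 100%. At Wnt10a cover was 77.9%, 100%, 0% and 100%. In all 4 of these ligands the genotypes overlapped, and the cKO libraries differed more from each other than the genotype means did. At equal covered length the difference in mean cover, cKO minus Ctrl, was -50.7 percentage points at Wnt7b in place of -11.6. That was the whole Ctrl mean of 50.7%, so Wnt7b then met the definition of lost. The difference went from 12.5 to 0 at Wnt6 and stayed at -10 at Wnt3 and at -38.9 at Wnt10a. The cKO 2 islands at Wnt7b had 31.1 reads per kb, under the cut of 32.6 for cKO 2 but above that of 29.4 for Ctrl 2. The change at Wnt7b therefore depends on unlike density cuts and is no measure of loss.

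Receptors, antagonists and effectors of the pathway followed the same order. Of 15 Wnt receptor and co-receptor promoters 3, 9, 1 and 10 were called and none was kept, lost or gained. Of 13 antagonists 4, 11, 2 and 11 were called, with Dkk3 kept at a cover of 23.6%, 63.6%, 21.4% and 33.6%. Sfrp2, which encodes a secreted regulator of Wnt signalling, had a cover of 42%, 78%, 0% and 93%. Of 20 effectors and R-spondins 4, 13, 3 and 14 were called, with Tcf7l2, a transcription factor of the pathway, and Rspo2, a secreted enhancer of Wnt signalling, kept. At Lef1, the Wnt-responsive transcription factor needed for the dentate gyrus, cover was 23.2%, 70%, 0% and 88.2%. The cKO mean was below the Ctrl mean at Wnt3, Lef1 and Sfrp2. It was above the Ctrl mean at Wnt3 and Lef1 with promoters of 1 kb on each side, and at Sfrp2 with islands of at least 2 kb only. At equal covered length the difference in mean cover was -25.75 percentage points at Lef1 in place of -2.5. It was -21 at Sfrp2 in place of -13.5, and it stayed at -10 at Wnt3. For each of these groups cKO 1 was below both Ctrl libraries, while cKO 2 was at or above Ctrl 2.

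The groups with the largest share of kept promoters were genes that pattern the body outside the dorsal forebrain. Of 39 Hox promoters 31 were kept (79.5%, against 1.67% of all promoters), with 38, 39, 32 and 39 called. Mean Hox cover was 72.2%, 99.5%, 50.8% and 99.5%, so cKO 1 was lowest and cKO 2 equalled Ctrl 2. Among the kept were Hoxa2, Hoxa3, Hoxa4 and Hoxa5. Of 8 Pax promoters 6 were kept, including Pax1, Pax2, Pax3 and Pax5. Of 15 ventral telencephalon and GABAergic genes 9 were kept, including Dlx1, Dlx2, Dlx5 and Dlx6, which specify interneurons. Of 12 Irx genes and SIX-family genes 7 were kept, including Irx1, Irx3 and Irx5, of 18 Gata and endoderm factors 8, including Gata3, Gata6, Foxa1 and Foxa2, and of 14 T-box genes 6, including Tbx1, Tbx2, Tbx3 and Tbx5. No promoter of these groups was lost or gained, beside 0.25% and 0.452% of all promoters, shares at which groups of this size would hold few or none. The median difference in cover, cKO mean minus Ctrl mean, was -17.5 percentage points for Hox genes, -17.5 for the ventral telencephalon group, -11.4 for Pax genes, -7.19 for the Irx and SIX-family group, -7.08 for T-box genes and 1.97 for Gata and endoderm factors. Over all promoters it was 0, a value fixed by the 70.1% that had no island in any library. Leaving aside olfactory receptors, no group had mean cover values that separated the genotypes.

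Genes of the hippocampus itself and of its signalling centres also included kept promoters. Of 18 dorsal midline and cortical hem genes 11, 17, 8 and 17 were called and 5 were kept (27.8%, against 1.67% of all promoters), among them Lmx1a, Lmx1b, Msx2 and Bmp4. Of 23 progenitor and granule neuron factors 7, 18, 3 and 19 were called and 2 were kept (8.70%), Neurog1 and Pax6. At Pax6, the transcription factor of radial glia, cover was 57.5%, 100%, 17.5% and 100%. At Eomes, which marks intermediate progenitors, it was 0%, 100%, 0% and 100%, and at Neurod1, a factor of granule neuron differentiation, 31.2%, 100%, 0% and 100%. At equal covered length the difference in mean cover was -50 percentage points at Eomes in place of 0. It was -65.6 at Neurod1 in place of -15.6, the whole Ctrl mean there, so Neurod1 then met the definition of lost. The difference stayed at -20 at Pax6. At Neurod1 the Ctrl 2 island, with 29.9 reads per kb, passed the cut of 29.4 for Ctrl 2. The denser cKO 2 island, with 31, fell under the cut of 32.6 for cKO 2. The change at Neurod1 therefore depends on unlike density cuts and is no measure of loss. Of 21 BMP and TGF-beta ligands and inhibitors 10, 14, 3 and 18 were called and 3 were kept, Bmp3, Gdf6 and Grem1. Of 11 Hedgehog pathway genes 6, 10, 0 and 10 were called, so that cKO 1 had none while cKO 2 matched Ctrl 2. Of 14 glial lineage genes 4, 10, 3 and 9 were called with Olig2 and Nkx2-2 kept, of 20 Fgf ligands 3, 9, 4 and 11 with Fgf8 and Fgf15 kept, and of 7 CDK inhibitor genes 2, 4, 1 and 4 with Cdkn2a kept.

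A few members had cover that separated the genotypes, and they are named after their values were seen. Cover was lower in both cKO libraries at Neurog2, a proneural factor (36.6%, 26.6%, 0% and 25%), at Ebf1 (72.1%, 100%, 0% and 70%) and at Fgf9 (80%, 63.6%, 0% and 48.6%). It was higher in both at C1qa, a complement gene of microglia (0%, 19.9%, 75% and 100%), and at Wnt8a. At the 3 lower genes cKO 1 had no island, and at Neurog2 and Ebf1 cKO 2 lay close to the lower Ctrl library. No group had more than 1 such promoter in either direction, beside 0.505% lower and 0.61% higher among all promoters.

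Ribosomal protein and housekeeping genes, which every cell uses, carried almost no islands, and so did clustered receptor genes. Of 79 cytoplasmic ribosomal protein promoters 0, 2, 0 and 4 were called, of 13 housekeeping genes 0, 0, 0 and 1, of 56 clustered protocadherins 0, 2, 0 and 3, and of 1127 olfactory receptors 0, 0, 1 and 6, with Olfr1414 gained. Of 15 microglia and blood markers 1, 3, 1 and 8 were called and of 12 vascular markers 1, 6, 0 and 6. Of 28 Polycomb genes 3, 9, 1 and 8 were called (10.7%, 32.1%, 3.57% and 28.6%), beside 6.33%, 18.1%, 4.15% and 25.6% of all promoters, and none was kept. The Kdm2b promoter had no island in any library. Zbtb20 and Neurod6, transcription factor genes of the dorsal forebrain named here after their values were seen, had none either. A repressive mark does not identify a tissue, and the label could be checked no further from these islands.

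**Figure D5:**
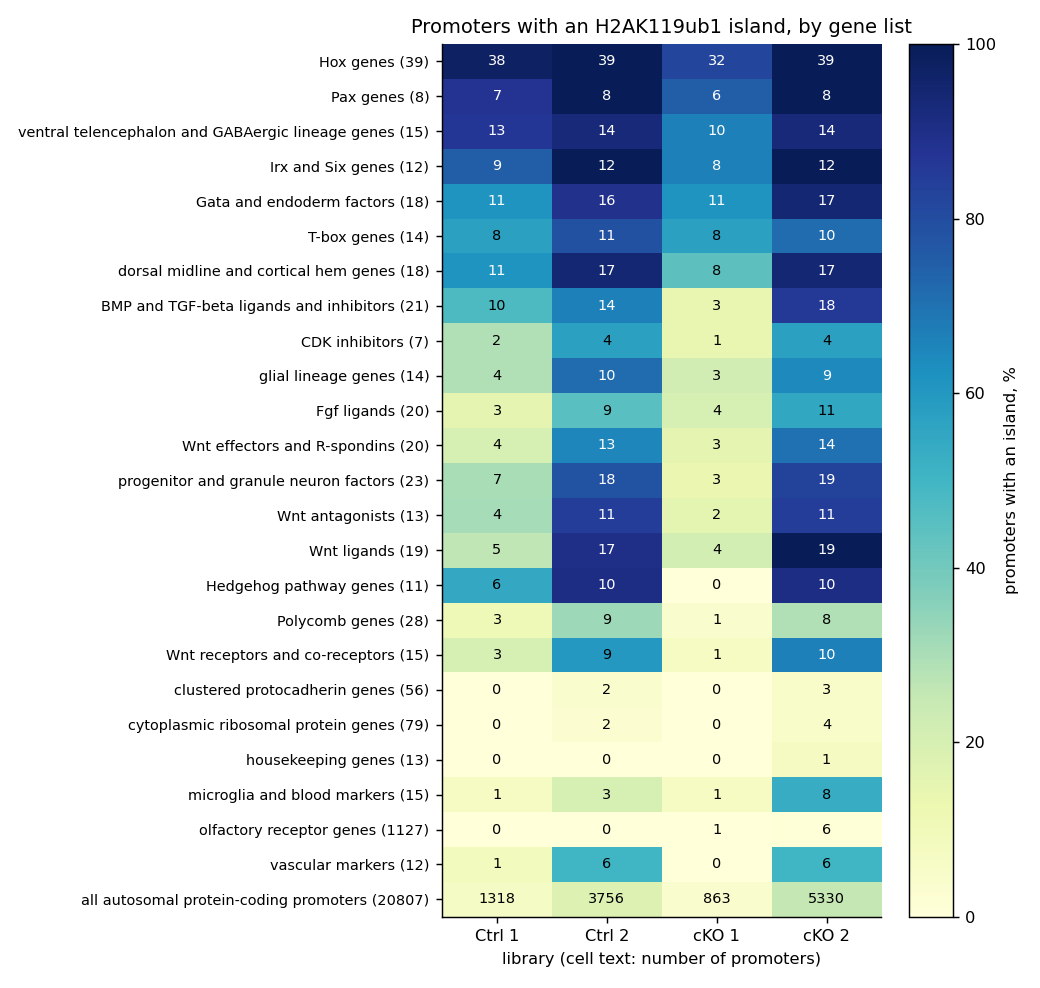
Heat map of the percentage of promoters with an island for each gene group (rows, with the number of promoters in brackets) in each library (columns); the number in a cell is the count of promoters called. Hox, Pax and ventral telencephalon genes are dark in every library, ribosomal protein and housekeeping genes are near 0, and in all groups but the olfactory receptors both replicates numbered 2 lie at or above both numbered 1.

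Across the genome, 58456 merged stretches held an island in at least 1 library. Of these 2750 (4.7%) were kept, 389 (0.665%) were lost and 1641 (2.81%) were gained. At equal covered length 557 regions were lost and 415 gained, so the order of the classes turned round. Of the kept regions 677 (24.6%) reached a promoter, of the lost 40 (10.3%) and of the gained 98 (5.97%), against 10.5% of all merged regions. The median span was 18.4 kb for kept, 5.0 kb for lost and 4.6 kb for gained regions. The lost region with the highest counts lay in the body of Dab1, a reelin pathway adaptor (chr4:104406201-104416800), with 150 and 110 reads in Ctrl. Others lay in Tox, in Pgm5 and 241 kb from Itga1, and the Syde2 promoter followed. The gained region with the highest counts was intergenic (chr5:119020001-119035000), 255 kb from Med13l, with 191 and 315 reads in cKO. Others lay in Trim66 and 199.8 kb from Enc1. Lost and gained regions were shorter than kept ones, and most did not reach a promoter.

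At the 2750 kept regions, where each library had a count, no region passed an adjusted p of 0.05 in any of 3 fits. With edgeR's quasi-likelihood test on counts, 0 regions were called (0%), with 30 at an unadjusted p under 0.05 (16 higher and 14 lower in cKO), and DESeq2 also called 0, with 58 unadjusted. For counts per kb, which takes out the length called in each library, edgeR called 0 (0%), with 43 unadjusted, and DESeq2 called 0, with 4 unadjusted. For width, limma called 0 (0%), with 6 unadjusted. Median counts were 91, 376, 93 and 447, median widths 4, 13.4, 3.6 and 15.4 kb, and median counts per kb 22.8, 27.9, 27.1 and 29.6. Counts per kb were higher in both cKO than in both Ctrl libraries at 786 regions (28.6%) and lower at 66 (2.4%), which goes with the low density of Ctrl 1 over all its islands. After division by each library's median the split was 434 higher and 375 lower.

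The regions named for their change in counts per kb had small changes. Among the 5 largest increases, the Camk2n1 promoter region (an inhibitor of CaMKII) had 21.5, 24.7, 35.3 and 31.3 reads per kb, a log2 change of 0.33 (SE 0.156, edgeR adjusted p = 0.998). The region at Bmp6, a BMP ligand of the hem, had 22.7, 25.9, 28.9 and 36.5 reads per kb. Syt15, Slc13a3 and Pgf completed the 5, and in none did the change exceed 0.33. Among the 5 largest decreases, Etv5, a transcription factor downstream of FGF signalling, had 25, 28, 21.9 and 22.1 reads per kb, a log2 change of -0.44 (SE 0.184, edgeR adjusted p = 0.998). Col2a1, a cartilage collagen, had 28, 34.3, 25.4 and 27.8, a log2 change of -0.40 (SE 0.126, edgeR adjusted p = 0.998). Rgs3, Pcsk6 and 4930469K13Rik were smaller. These 10 come from 105 regions with a promoter, at least 50 reads in every library and no overlap of the genotypes.

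The standard errors of the fitted changes show the size of the replicate spread. At the Camk2n1 region the log2 change of counts was 0.70 with an SE of 0.594, against an SE of 0.156 for counts per kb, and the log2 change of width was 0.35 with an SE of 1.80. Islands are called on read density, so density inside them can vary only above the calling threshold.

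Most kept promoters also carried H3K27me3 in the same tissue, a mark that the rule did not use. Its islands lay on 310, 301, 297 and 329 of the 348 kept promoters, and 280 (80.5%) were called in all 4 H3K27me3 libraries, against 8.79% of all promoters. On all promoters H3K27me3 was called at 3593, 2690, 3058 and 5613. Of the lost promoters 8, 6, 7 and 17 of 52 had H3K27me3, and none lost H3K27me3 (0.226% of all promoters did). Of the gained promoters 32, 29, 39 and 59 of 94 had it, 24 (25.5%) in all 4 libraries, and 4 (4.26%) gained it, against 1.82% of all promoters. H3K36me2, a mark of gene bodies and intergenic chromatin that is placed apart from Polycomb domains, lay in at least 1 library on 8.91% of kept, 5.77% of lost and 28.7% of gained promoters, against 13.2% of all. Of these classes the gained promoters had the highest share with H3K36me2 and the lost ones the lowest, with no test of the difference. The share was also 16.9% at CpG-poor and 8.82% at CpG-rich promoters, and 24.6% at those called in cKO 2 alone. Whether CpG content accounts for the shares of the classes was not tested.

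In neurospheres cultured from P0 hippocampus, few promoters moved as in the tissue. H2AK119ub1 islands lay on 333, 264, 291 and 309 of the 348 promoters kept in tissue. Of the 52 promoters lost in tissue, 37, 26, 22 and 22 were called in neurospheres, 5 were lost there too (9.62% of these 52 and 1.66% of the 302 lost in neurospheres) and none was gained. Of all promoters 1.45% were lost in neurospheres. Of the 94 gained in tissue, 65, 25, 45 and 66 were called, 2 were gained there (2.13% of the 94 and 0.656% of the 305, against 1.47% of all promoters) and 1 was lost. The libraries of the 2 systems were separate samples.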

How the data were processed

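The authors sequenced cross-linked, MNase-treated and sonicated chromatin on a NovaSeq instrument, trimmed reads with cutadapt, aligned them to mm10 with Bowtie2 2.4.5, removed duplicates with samtools and called islands in each library against input with SICER (200 bp windows, 600 bp gaps, FDR 0.01; its version is not given in the sources used here). The deposited files give each island's coordinates and its read counts, not normalized. Total reads per library are unknown, so counts outside islands are too, and no counting interval was set. Members and gene lists were chosen with earlier results of these data known.

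Promoters came from GENCODE vM21, and island cover was computed in Python 3.11.15. The exact permutation test, two-sided, was used for values with 1 number per library. Counts in kept regions, with and without called width in the offset, were tested with edgeR 4.0.16 (quasi-likelihood, TMM, at least 10 counts in at least 2 libraries) and widths with limma 3.58.1, in R 4.3.3 with Benjamini-Hochberg adjustment over all 2750 regions. DESeq2 1.42.0 was an alternative. The scripts were tested on simulated data. Genes were named by rule: the 10 genes the study discusses, the 10 lost and 10 gained promoters with the highest smaller count, the 10 kept with the widest islands, the 5 largest changes of counts per kb in each direction, and list members lost, gained or kept (up to 4). Alternatives covered the definition of a call, covered length, normalization, each library left out and the replicate block. The 1 kb enrichment and the division by library medians were added after seeing the data. Values of a few list members are not reported here.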

Additional observations from a re-analysis of the deposited data

Results flagged for a closer look

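At 2 named promoters, every cKO library moved one way in hippocampus and every cKO library the other way in neurospheres. Both promoters were named because they were gained, so their direction in hippocampus was fixed by that choice. The difference between the systems was not tested. At Slc43a1 the hippocampal cover was 0% in both Ctrl libraries and 88.8% and 100% in cKO, a mean difference of 94.4 percentage points (44.4 at equal covered length), while in neurospheres it was 100% in both Ctrl libraries and 28.8% and 0% in cKO. At Phyhip no Ctrl library of the hippocampus had cover, and the cKO libraries had 55% and 66.9%, a mean difference of 60.9 percentage points (the same at equal covered length), while neurosphere cover ran from 100% and 86.9% in Ctrl to 0% and 75% in cKO.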

How the results depend on the processing

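With each library reduced to the same covered length, the log2 ratio of promoters called was -0.27 in place of 0.29, kept, lost and gained promoters numbered 212, 131 and 48 in place of 348, 52 and 94, and kept, lost and gained regions 770, 557 and 415 in place of 2750, 389 and 1641, so that lost outnumbered gained in both; covered length itself gives no value there by construction. With at least 50% of the promoter covered they were 104, 26 and 35, and with 1 kb on each side 216 were kept and 62 gained. With at least 50% of the region covered 40 regions were kept and 980 gained. Over library medians, 434 regions were higher and 375 lower in counts per kb, in place of 786 and 66.

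Leaving out 1 library at a time, the log2 ratios ran from -1.44 to 1.66 for covered length, -1.56 to 1.23 for promoters called (both lower without cKO 2, at -1.44 and -1.56, and without Ctrl 1, at -0.15 and -0.28), -0.68 to 0.32 for median width (0.32 without Ctrl 2), 0.01 to 0.28 for counts per kb and -0.86 to -0.35 for CpG-rich enrichment, lower in cKO each time. Promoters kept ran from 351 to 972 (972 without cKO 1, 611 without Ctrl 1), lost from 55 to 676 (676 without cKO 2, 582 without Ctrl 1, 209 without Ctrl 2) and gained from 101 to 2062 (2062 without cKO 1, 357 without Ctrl 2, 205 without cKO 2). Regions kept ran from 2705 to 5977, lost from 457 to 5250 and gained from 1913 to 26979. Calls ran from 0 to 16 for region counts (all 16 lower, without cKO 2), from 1 to 1 for counts per kb and from 0 to 1 for width; these fits assume that the lone library varies like the others. The classes thus depend on which library is left out. For promoters this follows from the definition, since each library left out drops its condition from the class. Why the libraries differed in size was not tested.

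The replicate block gave 0 calls in all 3 fits, with 2.8% of regions at an unadjusted p under 0.05 for counts, 4.33% for counts per kb and 2.47% for width, in place of 1.09%, 1.56% and 0.218%. Same-numbered libraries deviated together (r = 0.328 for log2 counts over 2750 regions), but with 2 pairs and no shared batch in the labels they share only a number. Of 160 alternatives at 40 named promoters, 28 moved beyond the replicate spread. The genotype difference in cover changed sign in 4, from -9.05 to 25 at Tox2 (equal covered length), -13.5 to 4 at Sfrp2 (islands of at least 2 kb), -2.5 to 30 at Lef1 and -10 to 5 at Wnt3 (both 1 kb on each side), and went to 0 in 7. None of these 4 promoters separated the genotypes. At equal covered length the difference widened at the study genes Wnt7b, Lef1, Sfrp2, Eomes and Neurod1. It stayed the same at Wnt3, Wnt10a and Pax6 and went to 0 at Wnt6. The density cut of that setting was higher in cKO 2 (32.6 reads per kb) than in Ctrl 2 (29.4), so it does not compare libraries at an equal density.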
